A study of Homo sapiens with 6 samples.

Results

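B lineage genes are described here in THP-1 cells, a monocytic leukaemia cell line, as their transcripts were measured in stocks from 2 cell banks. The 9 genes are CD79A, CD79B, BLNK, IGLL1, VPREB1, MS4A1, POU2AF1, PAX5 and EBF1, out of 34918 genes to which the transcripts could be assigned. They were chosen by name as genes of the B cell programme after their levels in these same libraries had been seen, so their differences between the banks are given as a description, without a test. One group was THP-1 cells obtained from ATCC and the other THP-1 cells obtained from DSMZ, with 3 polyA RNA libraries each. Cells of both banks were untreated and were cultured in parallel in RPMI medium with 20% serum, for 48 h and, after a split, for another 24 h. The replicate expansions were independent according to the labels. Each bank is represented by its own stock of the line, so the bank and the earlier culture history of its stock cannot be told apart.

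B cells recognise antigen through a surface immunoglobulin that signals through the CD79A and CD79B chains. Before a light chain is made, the precursor cell pairs its heavy chain with a surrogate light chain built from the IGLL1 and VPREB1 proteins. EBF1 and PAX5 are the transcription factors that specify the lineage and hold it in place, and they act on genes such as CD79A, CD79B and BLNK. Cells of the monocyte lineage normally have this programme off.

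RefSeq promoter windows (GRCh38.p14), each running from 250 bases before the RefSeq start to 50 bases after it, were at hand for 6 of the 9 genes. The EBF1 window lies wholly inside the gene as GENCODE places it, so for EBF1 it holds no base upstream of the GENCODE start. The 3 sequences below are shown because IGLL1, PAX5 and BLNK were all higher in the DSMZ libraries and their upstream regions differ in composition. They are trimmed to the bases that lie upstream of the RefSeq start and of the gene's GENCODE start, on the strand of the gene. Capitals mark matches to a core of the EBF1 site (CCCNNGGG) in IGLL1 and to the Sp1 core (GGGCGG) in PAX5, and BLNK has no capitals because it had no match.
IGLL1: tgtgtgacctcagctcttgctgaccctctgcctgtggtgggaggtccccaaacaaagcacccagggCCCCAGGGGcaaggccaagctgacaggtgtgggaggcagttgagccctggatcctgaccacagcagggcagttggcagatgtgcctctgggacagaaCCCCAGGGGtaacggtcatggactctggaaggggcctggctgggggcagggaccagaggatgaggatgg
PAX5: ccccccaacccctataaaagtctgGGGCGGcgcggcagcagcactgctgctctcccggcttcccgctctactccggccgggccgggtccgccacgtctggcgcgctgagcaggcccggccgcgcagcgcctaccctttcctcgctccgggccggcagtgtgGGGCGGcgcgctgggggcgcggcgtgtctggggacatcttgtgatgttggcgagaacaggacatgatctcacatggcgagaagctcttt
BLNK: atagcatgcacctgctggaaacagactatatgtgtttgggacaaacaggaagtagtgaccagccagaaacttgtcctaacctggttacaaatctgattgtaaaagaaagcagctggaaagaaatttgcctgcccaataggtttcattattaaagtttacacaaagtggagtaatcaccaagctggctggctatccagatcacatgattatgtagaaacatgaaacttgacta

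The IGLL1 stretch lies at chr22:23580309-23580540, the PAX5 stretch at chr9:37034269-37034518 and the BLNK stretch at chr10:96271588-96271819, all on the minus strand. The EBF1 core was searched on both strands, which give the same matches because its fixed letters read the same on each. IGLL1 held 4 overlapping matches, which start 184, 183, 87 and 86 bases before the RefSeq start. The same core was in 19.1% of all 35116 promoter windows. VPREB1 held 1 match, CCCTTGGG, 29 bases before its RefSeq start, which lies inside the gene as GENCODE places it. The Sp1 core was found 226 and 89 bases before the PAX5 start, and 45.0% of all windows held it. CD79A, BLNK and EBF1 held neither core. The octamer ATTTGCAT, the site of the factors that POU2AF1 binds, was in 1.77% of all windows and in none of the 6 searched here. GC content was 63.7% in the IGLL1 window, 65.0% in that of PAX5 and 42.7% in that of BLNK, against a median of 58.7% over all windows. These matches describe the letters of the windows only.

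Levels are given as CPM, estimated counts per 1000000 counts on library sizes scaled by the TMM method, which allow one gene to be compared between libraries. Where genes are compared with each other, TPM is used, which also divides by transcript length. Fold changes are on the log2 scale, DSMZ minus ATCC. The libraries held 23413428 to 37119721 estimated counts. ATCC library 2 stood apart by GC content. Relative to the mean of the other ATCC libraries, its genes in the tenth lowest in GC had a median log2 difference of -0.95 and those in the tenth highest 0.35. The same medians of the DSMZ libraries lay between -0.05 and 0.06. Over the whole transcriptome, edgeR's quasi-likelihood test with Benjamini-Hochberg adjustment called 49.8% of 14572 tested genes at an adjusted p under 0.05, of which 24.1% of the tested genes were higher in DSMZ and 25.7% higher in ATCC. The libraries of the banks did not overlap for 62.4% of tested genes. Of the 9 B lineage genes, 7 had enough counts to be tested, and of these 6 were called higher in DSMZ and 1 higher in ATCC, with no overlap between the banks for any of the 7. Since the genes were selected on these differences, nothing is read from that count. In RNA from whole cultures, fewer cells of a type and less RNA per cell cannot be told apart.

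CD79B, the Ig-beta signalling chain of the B cell receptor (GENCODE 29 on GRCh38, as for all genes below, chr17:63928740-63932354, minus strand), was the most abundant of the 9 genes per length. It measured 0.989, 1.25 and 0.678 CPM in ATCC libraries 1, 2 and 3, and 11.2, 8.99 and 8.28 CPM in DSMZ libraries 1, 2 and 3. Every DSMZ library lay well above every ATCC library, and the DSMZ libraries were closer to each other in relative terms, with a coefficient of variation of 15.8% against 29.4%. The means were 0.972 ± 0.286 CPM (SD, n = 3) in ATCC and 9.48 ± 1.49 CPM (SD, n = 3) in DSMZ, a log2 fold change of 3.28 (SE 0.24). The difference rested on 80 estimated counts in ATCC and 809 in DSMZ, giving a count ratio of 9.59. Its 95% counting interval ran from 7.61 to 12.2 and, like all such intervals here, covers counting error only. In TPM the gene stood at 2.10 ± 1.58 in ATCC and 13.7 ± 4.39 in DSMZ (SD, n = 3). In DSMZ 65.4% of protein-coding genes had a lower mean TPM, and in ATCC 44.7%.

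CD79A, the Ig-alpha chain that forms a dimer with CD79B (chr19:41877120-41881372, plus strand), differed in the same direction at a much lower level. The ATCC libraries measured 0.318, 0.303 and 0.250 CPM and the DSMZ libraries 1.48, 1.20 and 1.20 CPM. The groups did not overlap, and DSMZ library 1 was the highest, as it was for CD79B. The means were 0.290 ± 0.0357 and 1.29 ± 0.159 CPM (SD, n = 3), a log2 fold change of 2.13 (SE 0.24) on 24 and 111 estimated counts, with a count ratio of 4.39 (95% counting interval 2.80 to 7.13). Per length, CD79A stood at 0.371 ± 0.0840 TPM in ATCC and 1.89 ± 0.257 TPM in DSMZ. The ratio of CD79B to CD79A in TPM was 8.39, 4.22 and 3.15 in the ATCC libraries and 10.9, 6.42 and 5.04 in the DSMZ libraries. CD79B was the more abundant partner in all 6 libraries, and the ranges of this ratio overlapped between the banks.

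BLNK encodes the adaptor that couples the kinase SYK to BTK and phospholipase C gamma once the receptor is engaged (chr10:96191702-96271587, minus strand). It measured 0.494, 0.530 and 0.357 CPM in ATCC and 1.82, 1.81 and 1.86 CPM in DSMZ. The DSMZ libraries were almost equal in CPM, with a coefficient of variation of 1.60%, and all lay above the ATCC libraries. They held 42, 51 and 67 estimated counts, too few to fix a level that closely, and in TPM they were at 1.68, 1.38 and 2.06. The log2 fold change was 1.98 (SE 0.22), on 38 and 160 estimated counts, and the count ratio was 3.99 (95% counting interval 2.79 to 5.85). BLNK overlaps ZNF518A, a zinc finger gene on the opposite strand, and shared 7.94% of its 31-base words with it. The mean level of ZNF518A was 25.9 CPM in ATCC, compared with 77.2 CPM in DSMZ. The library kit keeps strand, but the sources used here do not say whether the quantification used it. How far reads of ZNF518A entered the BLNK estimate was not tested. The main BLNK transcript, BLNK-201, shared 3.42% of its words with ZNF518A.

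IGLL1, the lambda5 part of the surrogate light chain (chr22:23573125-23580308, minus strand), was close to the limit of detection in ATCC. It had 0, 2 and 0 estimated counts in the ATCC libraries and 12, 12 and 34 in the DSMZ libraries. These were 0, 0.0757 and 0 CPM in ATCC and 0.521, 0.425 and 0.945 CPM in DSMZ. The gene was thus seen in all 3 DSMZ libraries, with DSMZ library 3 the highest, and in 1 ATCC library. The count ratio was 27.5, with a wide 95% counting interval of 7.28 to 232, and the fitted log2 fold change of 4.51 (SE 0.80) depends on how counts near 0 are treated. Without ATCC library 2 no ATCC count remained. The DSMZ level was then 12.5-fold a floor of 3 counts over the remaining ATCC libraries, 0.0533 CPM. This value leaves out the library that held both ATCC counts and the counting error in DSMZ, so it is no lower bound. The interval over all libraries started at 7.28. IGLL1 shared 18.4% of its 31-base words with other genes, 13.8% with the pseudogene IGLL3P, which had 1 estimated count in all 6 libraries together.

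VPREB1, the partner of IGLL1 in the surrogate light chain (chr22:22244675-22245515, plus strand), had 1 estimated count, in DSMZ library 2, and none in the other 5 libraries. MS4A1, which encodes the B cell surface protein CD20 (chr11:60455752-60470760, plus strand), had 0 estimated counts in all 6 libraries. A count of 0 over a bank allows up to 0.0363 CPM in ATCC and 0.0344 CPM in DSMZ, taking 3 counts over the 3 libraries as the limit. Neither gene therefore gave a measurable level or a fold change in these cells.

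POU2AF1 encodes a coactivator that B cells use with the octamer-binding factors POU2F1 and POU2F2 (chr11:111352252-111455630, minus strand). It measured 0.565, 0.530 and 0.749 CPM in ATCC and 3.34, 2.62 and 2.42 CPM in DSMZ. The lowest DSMZ library was above the highest ATCC library. The means were 0.615 ± 0.118 and 2.79 ± 0.485 CPM (SD, n = 3), a log2 fold change of 2.16 (SE 0.23). The count ratio was 4.43 (95% counting interval 3.26 to 6.11), on 51 and 238 estimated counts. POU2AF1 shared 5.73% of its 31-base words with other genes, 2215 in all. The largest share, 2.84%, was with the pseudogene AP002008.2, which had 0 estimated counts. The effect of shared words on the POU2AF1 estimate was not tested.

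PAX5, the factor that commits cells to the B lineage (chr9:36833275-37034185, minus strand), had the smallest difference of the 7 tested genes. The ATCC libraries measured 4.73, 3.94 and 5.85 CPM and the DSMZ libraries 8.94, 7.72 and 8.37 CPM. The gap between the highest ATCC and the lowest DSMZ library was smaller than the range within ATCC. The means were 4.84 ± 0.962 and 8.34 ± 0.611 CPM (SD, n = 3), a log2 fold change of 0.78 (SE 0.17) and a count ratio of 1.71 (95% counting interval 1.51 to 1.94). With 402 and 725 estimated counts it was among the better counted of the 9 genes, but its transcript is long, and per length it stood at 0.709 ± 0.165 TPM in ATCC and 1.44 ± 0.205 TPM in DSMZ.

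EBF1, which acts together with PAX5 in early B cell development (chr5:158695916-159099761, minus strand), went the other way. It measured 1.27, 1.06 and 1.53 CPM in ATCC and 0.304, 0.319 and 0.500 CPM in DSMZ. All ATCC libraries lay above all DSMZ libraries. The log2 fold change was -1.74 (SE 0.29), and the ratio of ATCC to DSMZ counts was 3.32 (95% counting interval 2.24 to 5.04), on 107 estimated counts in ATCC and 34 in DSMZ. The libraries with the higher CD79A, CD79B, BLNK, POU2AF1 and PAX5 levels were therefore those with the lower EBF1 level.

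**Figure D1:**
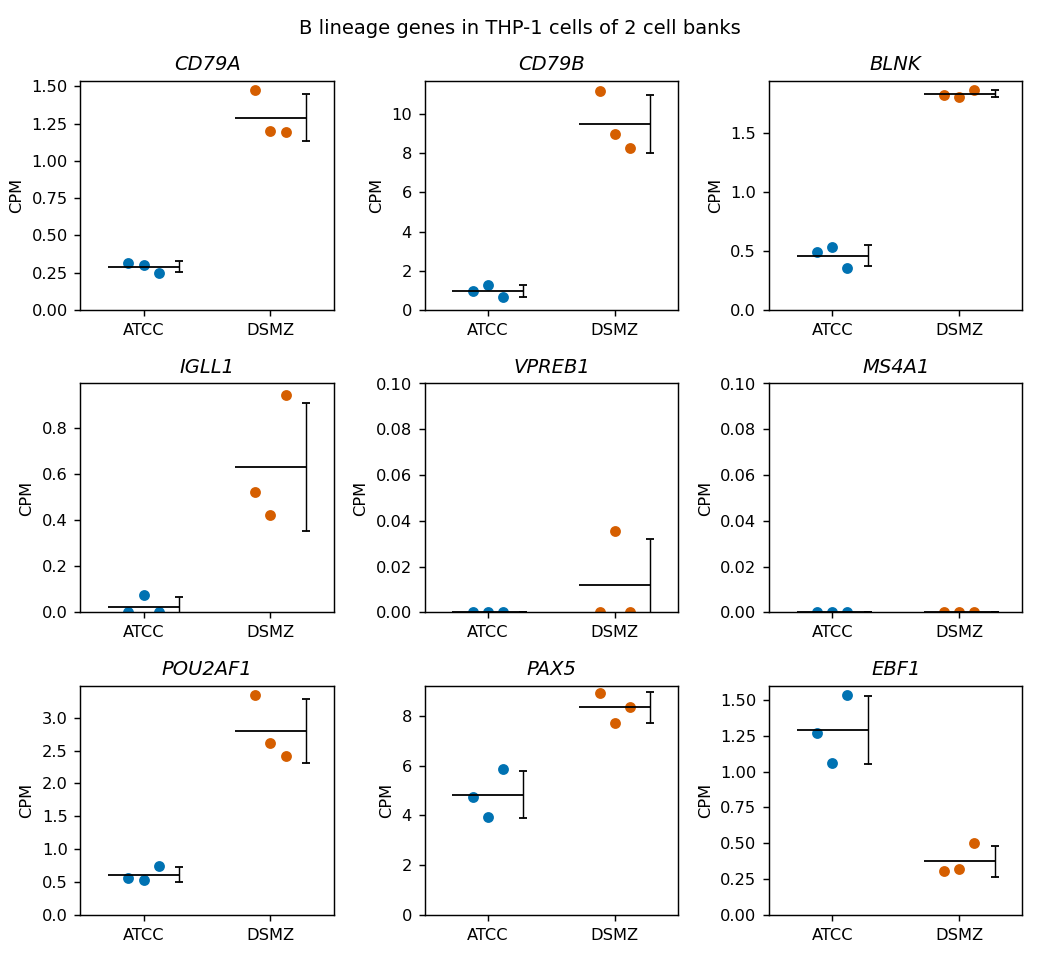
CPM of the 9 B lineage genes in each library (points, ATCC in blue and DSMZ in orange, 3 libraries each) with the mean (horizontal line) and SD (bar), on a linear axis from 0 that differs between panels. DSMZ lies above ATCC for CD79A, CD79B, BLNK, IGLL1, POU2AF1 and PAX5 and below it for EBF1, and MS4A1 is at 0 in all 6 libraries.

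Ordered per length, the 9 genes stood as follows in DSMZ. CD79B led at 13.7 TPM, and CD79A (1.89), BLNK (1.71), PAX5 (1.44), IGLL1 (1.36) and POU2AF1 (1.09) followed within a narrow band of TPM. Neighbours within that band did not differ beyond their SDs, which were 0.257, 0.341, 0.205, 0.665 and 0.185 TPM. EBF1 came next at 0.197 ± 0.176 TPM. The EBF1 value rested on DSMZ library 3, at 0.399 TPM against 0.104 and 0.0876, without which the mean was 0.0957 TPM. In ATCC, CD79B at 2.10 ± 1.58 TPM was followed by EBF1 at 0.814 ± 0.336 and PAX5 at 0.709 ± 0.165 TPM, and these neighbours did not differ beyond their SDs either. The ATCC mean of CD79B rested on library 1, at 3.90 TPM against 1.46 and 0.953, without which it was 1.21 TPM. Below them, BLNK was at 0.406 ± 0.128, CD79A at 0.371 ± 0.0840, POU2AF1 at 0.313 ± 0.0566 and IGLL1 at 0.0778 ± 0.135 TPM. The order thus differed between the banks chiefly in the place of EBF1. Summed over the 9 genes, the level was 7.69 to 9.42 CPM in the ATCC libraries and 23.1 to 27.6 CPM in the DSMZ libraries. This sum is not divided by length and restates values already given. In DSMZ most of it was CD79B and PAX5, at means of 9.48 and 8.34 CPM. In DSMZ, 44.5% of protein-coding genes had a lower mean TPM than CD79A and 40.8% a lower one than POU2AF1.

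The estimated counts were split among annotated transcripts in ways that varied between libraries of the same bank. CD79A-201, a protein-coding transcript, held 96.9% of the CD79A counts in ATCC and 87.3% in DSMZ. For CD79B, the protein-coding transcript CD79B-203 held 246 and 188 estimated counts in DSMZ libraries 1 and 2, but 8.69 in DSMZ library 3. There the protein-coding CD79B-201 held 248, against 0 and 64.7 in the other 2 DSMZ libraries. The assignment between these transcripts of nearly equal length, 1254 and 1269 bases, therefore differed among the DSMZ replicates, whose levels for the whole gene lay between 8.28 and 11.2 CPM. In ATCC, CD79B-203 had 0 estimated counts in every library and CD79B-201 had 0, 32.9 and 18.6. ATCC library 1 had 22.2 estimated counts on CD79B-205, a retained intron transcript, and 5.80 on CD79B-202, which is 378 bases long. That library also had the highest ATCC values of CD79B in TPM, 3.90, and of the CD79B to CD79A ratio, 8.39, but not of CD79B in CPM.

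PAX5 and POU2AF1 were each mostly 1 transcript. The 8615-base PAX5-201 held 99.5% of PAX5 counts in ATCC and 97.3% in DSMZ, with 132, 104 and 164 estimated counts in the ATCC libraries and 200, 215 and 290 in the DSMZ libraries. POU2AF1-201 held 69.9% of the gene in ATCC and 93.1% in DSMZ, and most of the rest lay on the processed transcript POU2AF1-202, which had 2.05, 6.46 and 5.79 estimated counts in ATCC and 4.05, 4.20 and 8.17 in DSMZ. Summed over protein-coding transcripts alone, the POU2AF1 log2 fold change was 2.62, against 2.16 for the whole gene, and the counts of the noncoding transcript overlapped between the banks. BLNK-201 held 58.0% of BLNK in ATCC and 91.0% in DSMZ, and BLNK-202 took all 10 estimated counts of ATCC library 3 and none elsewhere.

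EBF1 counts were the most scattered. In DSMZ 90.2% of them were on EBF1-211, a protein-coding transcript that starts inside the gene, at 6.56, 9 and 15.1 estimated counts. In ATCC this transcript had 17.4, 3.08 and 0 estimated counts, so the banks overlapped for it. Each ATCC library had most of the remainder on a different transcript, 16.6 on EBF1-207 (retained intron) in library 1, 19.1 on EBF1-205 (processed transcript) in library 2 and 28.8 on EBF1-201 (protein-coding) in library 3. None of these had a DSMZ count. When only protein-coding transcripts were summed, the EBF1 log2 fold change was -0.72 with an SE of 0.63, against -1.74 for the whole gene. The EBF1 difference was thus smaller and less certain over the transcripts annotated as coding. For IGLL1, IGLL1-202 held 63.3% and IGLL1-201 30.1% of the DSMZ counts, while both ATCC counts were on IGLL1-203.

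**Figure D2:**
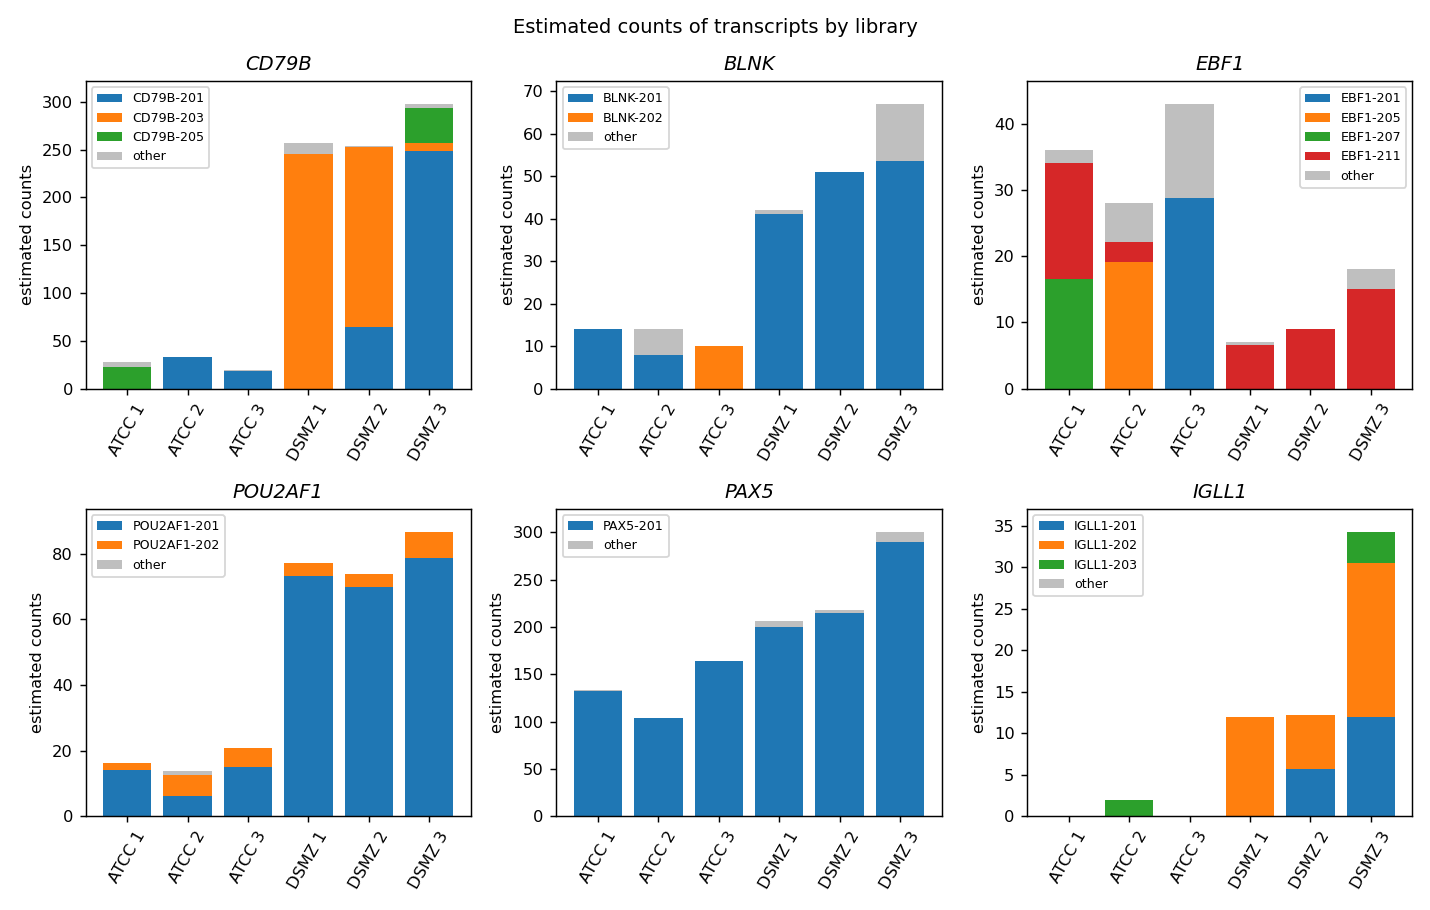
Estimated counts (linear axis from 0, not scaled for library size) of annotated transcripts of 6 B lineage genes in each of the 6 libraries, stacked by transcript, with all transcripts under 10% of the gene in both banks pooled in grey. CD79B-203 (orange) makes up most of DSMZ libraries 1 and 2 and CD79B-201 (blue) most of DSMZ library 3, and EBF1-211 (red) makes up most of each DSMZ library for EBF1.

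The genomic surroundings of the B lineage genes differed between the banks to very different degrees. Of 78 tested genes within 5 Mb of BLNK, 65 were higher in DSMZ and 1 in ATCC, with a median log2 fold change of 1.16. The median over all 532 other tested genes of chromosome 10 was 1.03, compared with 1.98 for BLNK itself. For CD79B the 78 neighbours had a median of 0.39 and those of chromosome 17 a median of 0.38, well under the 3.28 of the gene. The neighbours of PAX5 differed in the opposite direction to it, with 8 of 87 higher in DSMZ, 41 higher in ATCC and a median of -0.39, as did those of POU2AF1, with 1 of 42 higher in DSMZ, 16 higher in ATCC and a median of -0.31. Around CD79A (0.12), IGLL1 (-0.11) and EBF1 (0.04) the median log2 fold change of neighbours was near 0. The 159 tested neighbours of MS4A1, itself without a count, had a median of -0.33. The part of the regional difference in each gene's own difference was not tested. Without ATCC library 2, the library that stood apart by GC content, the log2 fold change was 2.17 for CD79A, 3.50 for CD79B, 2.10 for BLNK, 2.08 for POU2AF1, 0.66 for PAX5, -1.84 for EBF1 and a fitted 7.24 for IGLL1, which then had no ATCC count.

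**Figure D3:**
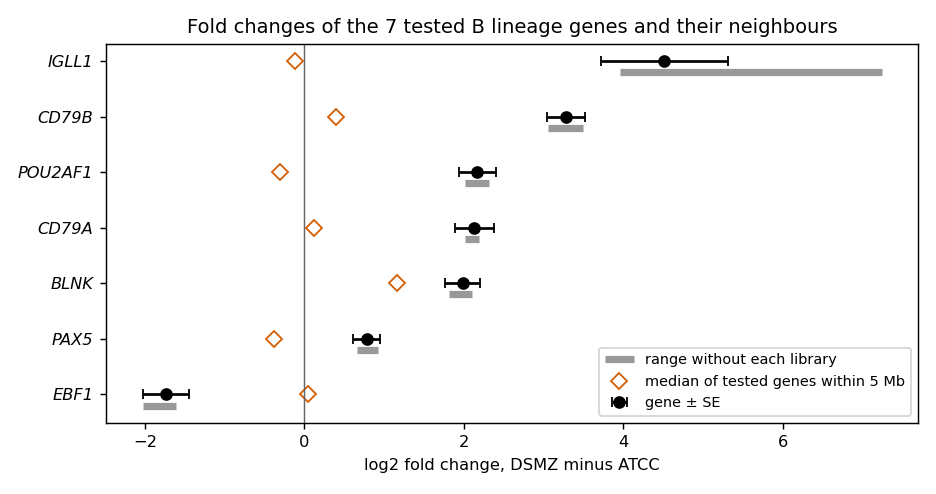
Log2 fold change, DSMZ minus ATCC (linear axis), of the 7 B lineage genes with enough counts (black points, bars for SE), the range when each of the 6 libraries was left out in turn (grey), and the median of tested genes within 5 Mb (orange diamonds). BLNK, at 1.98, is the gene whose neighbours lie nearest to it, at 1.16, and the PAX5 and POU2AF1 diamonds lie on the other side of 0 from their genes.

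For each tested gene, the genes with the most similar profile were those with the smallest root mean square difference in centred log2 CPM over the 6 libraries. The closest to CD79A was SCD5, with a difference of 0.0918, followed by BHLHE40 (0.109). For CD79B they were ZDHHC11 (0.129) and FGF11 (0.155), for POU2AF1 INSM1 (0.120) and CA7 (0.134), for BLNK ELOVL3 (0.0995) and TMEM44 (0.107), and for PAX5 SCHIP1 (0.0895) and TOB1 (0.0936). PCDHGA2 (0.0935) and ESRP1 (0.122) were closest to EBF1. For IGLL1, CCR7 was closest at 0.224 and the next, DDN, was at 0.561. CCR7 and IGLL1 both had a mean of 0.0252 CPM in ATCC, near the limit of detection. Over 6 libraries of 2 banks, this measure mostly picks genes with a similar fold change between the banks. SCD5, for example, had a log2 fold change of 2.24, against 2.13 for CD79A. None of the 9 B lineage genes was among the closest pair for another of them.

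The wider pathway was read from lists of related genes that leave out the 9 genes. Of 49 genes of antigen receptor signalling, 46 were tested, and by edgeR's quasi-likelihood test with Benjamini-Hochberg adjustment 12 were higher in DSMZ, 15 higher in ATCC and 19 did not pass. Without ATCC library 3 the count higher in DSMZ was 7. The median log2 fold change of the list was -0.09, against 0.01 over all tested genes. The share of the list called was 58.7%, against 49.8% of all tested genes (24.1% higher in DSMZ and 25.7% higher in ATCC). The kinases on either side of BLNK were both lower in DSMZ. SYK stood at 354 ± 49.1 CPM in ATCC and 208 ± 8.47 CPM in DSMZ (log2 fold change -0.76), and BTK at 115 ± 6.13 and 58.5 ± 2.47 CPM (-0.98). LYN, the kinase that phosphorylates the CD79 chains, was also lower in DSMZ, at 79.2 ± 6.89 against 117 ± 0.953 CPM (-0.57).

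Among the called signalling genes with a mean of at least 1 CPM over both banks, those with the greatest changes included PAG1, PIK3AP1 and BANK1. PIK3AP1, an adaptor for phosphoinositide 3-kinase, rose from 102 ± 12 CPM in ATCC to 283 ± 38.3 in DSMZ (log2 fold change 1.47) and lies within 5 Mb of BLNK on chromosome 10. PAG1, an adaptor that recruits the inhibitory kinase CSK, fell from 96.6 ± 26.7 CPM in ATCC to 24.4 ± 2.34 in DSMZ (-1.99). BANK1 (-1.29), a B cell scaffold protein, was lower in DSMZ as well. The signalling genes were thus split between the banks, as the tested genes as a whole were. The higher CD79A, CD79B and BLNK levels in DSMZ stood beside lower levels of SYK, BTK and LYN. The phospholipase C gamma genes, named here after their values were seen, were not both lower by the test. PLCG1 was called higher in DSMZ, at 78.9 against 44.6 CPM (0.82), and PLCG2 did not pass (-0.22).

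Of 34 B cell surface and coreceptor genes, 24 were tested, with 8 higher in DSMZ, 9 higher in ATCC and a median log2 fold change of -0.23. The share called was 70.8%, against 49.8% of all tested genes. TNFRSF13C, the receptor for the B cell survival factor BAFF, was the furthest apart. It measured 0.989, 0.719 and 0.678 CPM in the ATCC libraries and 7.42, 7.79 and 9.06 CPM in the DSMZ libraries, a log2 fold change of 3.34 (SE 0.19, adjusted p = 2.11e-05 by edgeR's quasi-likelihood test). The banks did not overlap, and the log2 fold change was close to the 3.28 of CD79B. CXCR4, a chemokine receptor, was also higher in DSMZ (1.91), while LY9 (-2.72) and IL7R (-1.64), the interleukin 7 receptor of precursor lymphocytes, were lower.

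Of 37 other transcription factors of the B lineage, 34 were tested, with 10 higher in DSMZ, 11 higher in ATCC and a median log2 fold change of -0.08. The share called was 61.8%, against 49.8% of all tested genes. POU2F2, a partner of POU2AF1, was at 19.0 ± 0.882 CPM in ATCC and 44.6 ± 7.31 CPM in DSMZ (1.23). EBF3, of the same family as EBF1, differed in the opposite direction to it, at 6.79 ± 1.95 CPM in ATCC and 27.2 ± 6.50 in DSMZ (2.00). It lies on chromosome 10, where tested genes other than BLNK had a median log2 fold change of 1.03. The part of that regional difference in the EBF3 value was not tested. A further family member, EBF4, named here after its values were seen, had 4 estimated counts in ATCC and 93 in DSMZ, a ratio of 22.0 (95% counting interval 8.33 to 82.6). IKZF1, a regulator of lymphoid development, was higher in DSMZ (0.65), and TCF3, which encodes the E proteins that act before EBF1, did not pass (0.21, adjusted p = 0.187 by edgeR's quasi-likelihood test), although it did without ATCC library 2 (0.32, adjusted p = 0.0128). Among called factors with a mean of at least 1 CPM over both banks, a limit that leaves out EBF4, the greatest changes beside EBF3 were in IKZF2 (-4.09), KLF2 (3.10) and LEF1 (-2.13).

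The list of V(D)J recombination and immunoglobulin genes joined absent lymphoid genes to abundant DNA repair and chromatin genes such as PRKDC, at 1722 CPM in ATCC and 1041 CPM in DSMZ, and HMGB1, at 850 and 1362 CPM, both named after their values were seen. Of 33 genes, 14 had no count in any library, including IGHM, the heavy chain of IgM, and DNTT, the terminal transferase. IGKC had 1 estimated count and RAG2 had 1, all in ATCC, and VPREB3 had 2 in ATCC and 3 in DSMZ. RAG1, the catalytic part of the recombinase, measured 1.06, 1.67 and 1.18 CPM in ATCC and 2.43, 2.19 and 1.97 CPM in DSMZ. Its groups did not overlap, and it passed narrowly (log2 fold change 0.75, SE 0.22, adjusted p = 0.0243 by edgeR's quasi-likelihood test), without its partner RAG2 at a measurable level. The call was lost when ATCC library 1 or 3, or DSMZ library 1 or 2, was left out, with adjusted p between 0.0818 and 0.104 in edgeR. Of the 12 tested genes of the list, 5 were higher in DSMZ and 2 in ATCC (58.3% called, against 49.8% of all tested genes). Among these were the DNA repair genes DCLRE1C (0.97), NHEJ1 (0.94) and PAXX (-1.56), which are used in other cell types as well. DCLRE1C lies on chromosome 10, where tested genes other than BLNK had a median log2 fold change of 1.03. MS4A1 belongs to a gene family clustered on chromosome 11, and the list of its 17 relatives also holds TMEM176A and TMEM176B on chromosome 7. Of the 17, 9 were tested, of which 3 were higher in ATCC and 6 did not pass (33.3% called, against 49.8% of all tested genes). The count higher in ATCC was 5 without ATCC library 2 and 1 without DSMZ library 2 or 3. Among the 3, TMEM176B (-0.91) and MS4A4E (-0.74) both lost the call when DSMZ library 2 or 3 was left out, and MS4A4E also without ATCC library 1 or 3. The greatest change was in MS4A6A, a gene of myeloid cells, at 248 ± 29.9 CPM in ATCC and 49.6 ± 10.8 CPM in DSMZ (-2.32).

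**Figure D4:**
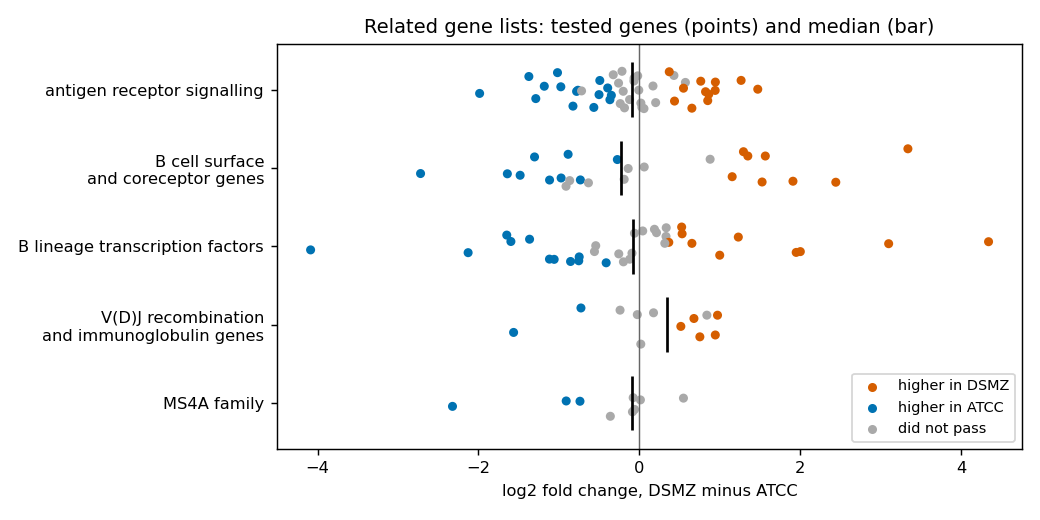
Log2 fold change, DSMZ minus ATCC (linear axis), of each tested gene (points) of 5 lists of related genes that leave out the 9 B lineage genes, with the median of each list as a black bar. Orange points were called higher in DSMZ, blue points higher in ATCC and grey points did not pass, and the medians lie between -0.23 and 0.35.

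Markers of the cell types that the cultures could hold were summed in each library. The B cell list summed to 8.90 to 10.5 CPM in ATCC and 28.1 to 30.6 CPM in DSMZ. Of its 10 genes, 5 are among the 9, and most of the rest of the DSMZ sum was TNFRSF13C at 8.09 CPM, so the difference in this sum restates values already given. MS4A1 and BLK were at 0 counts in all libraries, CD22 had 5 counts in ATCC and 4 in DSMZ, and FCRL1 was at 0.717 ± 0.457 CPM in ATCC and 0.748 ± 0.0859 CPM in DSMZ and did not pass. The plasma cell list summed to 167 to 188 CPM in ATCC and 169 to 215 CPM in DSMZ. That sum was nearly all XBP1, at 161 CPM in ATCC and 183 CPM in DSMZ, which many cell types express. Its other tested members, SDC1 (log2 fold change -0.88) and PRDM1 (-1.06), were lower in DSMZ by edgeR's test, JCHAIN had 1 count in all 6 libraries, and TNFRSF17 had 2 counts in ATCC and 1 in DSMZ.

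The T cell list summed to 4.73 to 6.13 CPM in ATCC and 1.52 to 1.66 CPM in DSMZ, with CD3E and TRBC1 at 0 counts, and the NK cell list to 13.5 to 16.9 and 6.03 to 8.78 CPM. The plasmacytoid dendritic cell list summed to 35.2 to 55.2 CPM in ATCC and 31 to 34.8 CPM in DSMZ, with CLEC4C and GZMB at 0 counts. Most of that sum was TCF4, at 32.1 CPM in ATCC and 22.1 CPM in DSMZ, which did not pass. Its other tested members went both ways, with IL3RA (log2 fold change -0.76) lower and IRF7 (0.95) higher in DSMZ. The granulocyte progenitor list summed to 4105 to 5005 CPM in ATCC and 3493 to 3856 CPM in DSMZ, and 2 of its 5 genes were higher in each bank. All 10 monocyte markers were tested, with sums of 922 to 1215 CPM in ATCC and 1041 to 1186 CPM in DSMZ. These sums overlapped, but 4 of the 10 were higher in ATCC, namely CD33 (log2 fold change -1.31), CD14 (-2.01), FCN1 (-1.38) and FCGR1A (-0.44). CD14, at 1.32 CPM in ATCC and 0.334 in DSMZ, and FCN1, at 0.623 and 0.230 CPM, were low in both banks. Of the 10, 2 were higher in DSMZ, CD4 (0.78) and CSF1R (0.60). Marker levels of several cell types thus differed between the banks, in both directions, as did the levels of 49.8% of all tested genes. The part of other cells in the B lineage levels was not tested.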

How the data were processed

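The 9 genes and the related lists were chosen with earlier results of these data known. The submitters' processing notes name bcl2fastq 2.20, Trimmomatic 0.35, kallisto 0.43.0 and the build GRCh38. Per the file headers, the authors deposited a kallisto table of 179973 transcripts for each library with an estimated count, a TPM value, a length and an effective length. The sources used here do not say whether kallisto was told the strand. Transcripts were assigned to genes with GENCODE 29. By identifier, 163714 were matched on the primary assembly, and 14387 others through the gene symbol that GENCODE 29 lists for their identifier. The remaining 1872 were left out. The deposited estimated counts and TPM were summed per gene, and the summed counts were rounded to whole numbers.

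Genes kept by filterByExpr were fitted with edgeR 4.0.16 (R 4.3.3), TMM scaling and the bank as the only term over all 6 libraries, giving a biological coefficient of variation of 15.87%. The fit was tested on simulated data over 14399 genes, with 21 of 67 genes recovered at a 1.5-fold change, 60 of 67 at 2-fold and 66 of 66 at 4-fold. There were 6 false calls. The simulation gave all genes 1 common dispersion and changed 200 genes, whereas 49.8% of tested genes were called in the data. Its recovery rates therefore do not carry over to genes with few counts. Intervals on count ratios are exact conditional binomial ones. A share of 31-base words was computed from the transcripts of the reference. From each list were named at most 4 genes past an adjusted p of 0.05 with the greatest change and a mean of at least 1 CPM over both banks, plus a fixed set that includes SYK, BTK, LYN, TCF3, POU2F2, IKZF1 and RAG1. Some genes that this rule takes are not reported here. Alternatives were other scalings, filters, transcript sets and tools (DESeq2 1.42.0, limma 3.58.1), a replicate block, a GC correction and leaving out each library. No pair of libraries agreed within counting noise, as chi-square divided by its degrees of freedom was at least 4.34.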

Additional observations from a re-analysis of the deposited data

How the results depend on the processing

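None of the 7 tested B lineage genes changed direction under any alternative run. Their log2 fold changes ranged from 1.45 to 2.36 for CD79A, 2.57 to 3.68 for CD79B, 0.97 to 2.62 for POU2AF1, 1.65 to 4.69 for IGLL1, 1.28 to 2.11 for BLNK, 0.69 to 1.06 for PAX5 and -2.11 to -0.72 for EBF1 over other scalings, filters, transcript sets and tools. The lowest values of CD79A, CD79B, POU2AF1, IGLL1 and BLNK were on log2(TPM + 0.5), which shrinks low genes by construction. With each library left out, the ranges were 2.01 to 2.19, 3.05 to 3.50, 2.02 to 2.31, 3.96 to 7.24, 1.81 to 2.10, 0.66 to 0.92 and -2.03 to -1.61. IGLL1 was not tested with a filter of 1 CPM in 3 libraries.

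Among the related lists, leaving out each library gave 7 to 17 signalling genes higher in DSMZ and 1 to 5 MS4A relatives higher in ATCC. Over protein-coding transcripts alone, 1 recombination gene was higher in ATCC, since PAXX did not pass there. The cause was not tested. RAG1 also did not pass with DESeq2, limma on TPM, upper quartile scaling, the GC correction or the transcript length offset (adjusted p between 0.00433 and 0.389 over all its alternatives). Upper quartile scaling gave 42.4% of calls higher in DSMZ, against 48.4%, and a median of all tested genes of -0.07. With a replicate block 7015 genes were called, against 7262. Deviations of same-numbered libraries correlated at 0.00808, 0.0558 and 0.135, and those of differently numbered libraries between -0.0986 and 0.0175. The values 0.0558 and 0.135 lay above every differently numbered pair, so these values do not settle whether the numbers pair the libraries. The main fit has no pairing term because the labels call the expansions independent. Depth limits VPREB1, MS4A1 and IGLL1 in ATCC. Transcript shares other than those of PAX5, and of CD79B in DSMZ, rest on few counts. The CD79B shares differed among the DSMZ libraries. P-values measure the spread between expansions of 1 stock per bank.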
